A study of Mus musculus with 24 samples.

Results

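Immediate early genes are the genes a cell transcribes first when a stimulus reaches it, before any protein has to be made. The 40 genes described here are mouse immediate early and related rapid-response genes, chosen by a list of symbols, with no rule on their values. Earlier results of these data were known when the list was chosen. Each of the 40 symbols named 1 of the 52724 gene rows of a count table from whole mouse hearts. The filter on low counts left 39 of them for testing. Fosl1, an AP-1 subunit, was left out, with 0 to 6 counts per library and 31 counts in all.

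RNA was sequenced from whole hearts in a study of FKBP12, the small immunophilin encoded by Fkbp1a, which binds the ryanodine receptor. There were 2 controls, FKl/l, which carries floxed Fkbp1a and no Cre, and MHC CRE Only, which carries Cre under the αMHC promoter but not the floxed gene. There were 2 deletions, FKl/l MCK+, in which MCK drives Cre, and FKl/l MHC+, in which αMHC does. The 24 libraries comprise 3 per genotype in batch 1 and 3 in batch 2, and FKl/l MHC+ 2-3 stands for the third FKl/l MHC+ library of batch 2. Per the study's design, αMHC and MCK drive Cre from different stages of embryonic development and at different levels. No group carried MCK-driven Cre without the floxed allele, so the deletion and the driver cannot be told apart in FKl/l MCK+. Both promoters act in heart muscle, and endothelial cells, fibroblasts and other cells of a whole heart keep their Fkbp1a. The labels give no age or sex and leave unsaid whether 1 library is 1 mouse, so every p-value refers to variation among libraries, which may be technical. What the batches were is also not given.

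Immediate early genes are held ready at their promoters by factors such as SRF with its ternary complex partners and CREB, which MAP kinases, calcium and cyclic AMP switch on within minutes. Many encode transcription factors (the FOS, JUN, EGR, NR4A and KLF families), and others encode proteins that end the response, among them MAP kinase phosphatases, mRNA decay proteins and signalling inhibitors. Most of the transcripts are short-lived. In the heart they are known to respond to adrenergic drive, stretch, ischaemia and the removal and handling of the tissue itself.

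Because these genes are known for their shared upstream control, the 250 bases before the RefSeq start are shown for 5 members: Fos, 3 whose levels rose with it between libraries, and Btg1, whose level did not. The sequences come from RefSeq on GRCm38.p6, read 5′ to 3′ on the strand of the gene, and end at the base before the start. They cover chr12:85473640-85473889 on the plus strand for Fos, chr15:101266596-101266845 on the plus strand for Nr4a1, chr1:134079156-134079405 on the minus strand for Btg2, chr8:84978749-84978998 on the minus strand for Junb and chr10:96616751-96617000 on the plus strand for Btg1. None of these windows holds an annotated exon. The Nr4a1 window lies inside the gene as GENCODE M21 draws it, ahead of a later start. Capitals mark matches, on either strand, to the core site of the cyclic AMP response element (CRE, TGACG), the full CRE (TGACGTCA), the EGR site (GCGGGGGCG or GCGTGGGCG) and the TATA box (TATAAA).
Fos: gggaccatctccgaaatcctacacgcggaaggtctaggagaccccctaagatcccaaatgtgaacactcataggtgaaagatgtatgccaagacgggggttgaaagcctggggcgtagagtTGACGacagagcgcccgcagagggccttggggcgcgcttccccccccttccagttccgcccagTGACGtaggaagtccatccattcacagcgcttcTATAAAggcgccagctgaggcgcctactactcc
Nr4a1: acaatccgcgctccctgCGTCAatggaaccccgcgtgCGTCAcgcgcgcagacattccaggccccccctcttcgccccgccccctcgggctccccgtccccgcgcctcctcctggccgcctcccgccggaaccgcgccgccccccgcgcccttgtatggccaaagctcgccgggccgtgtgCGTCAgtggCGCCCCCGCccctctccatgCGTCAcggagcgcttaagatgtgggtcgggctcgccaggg
Btg2: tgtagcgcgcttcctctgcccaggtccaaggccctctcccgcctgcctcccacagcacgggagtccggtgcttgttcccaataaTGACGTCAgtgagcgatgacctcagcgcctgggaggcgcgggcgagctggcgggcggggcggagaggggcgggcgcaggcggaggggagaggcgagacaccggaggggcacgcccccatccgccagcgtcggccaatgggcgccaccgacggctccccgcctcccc
Junb: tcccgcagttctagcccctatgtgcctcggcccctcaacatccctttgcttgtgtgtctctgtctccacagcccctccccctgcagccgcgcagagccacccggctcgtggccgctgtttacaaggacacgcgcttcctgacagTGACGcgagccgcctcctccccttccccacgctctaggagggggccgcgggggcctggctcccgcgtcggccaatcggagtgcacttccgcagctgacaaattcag
Btg1: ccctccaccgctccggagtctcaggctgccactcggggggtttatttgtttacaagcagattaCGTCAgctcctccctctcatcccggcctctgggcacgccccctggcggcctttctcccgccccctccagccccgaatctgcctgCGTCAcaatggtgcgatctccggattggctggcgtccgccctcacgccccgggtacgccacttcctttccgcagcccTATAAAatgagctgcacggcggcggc

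Fos held a CRE core site 129 bases before its start, another at 66 bases, and a TATA box at 33 bases. Nr4a1 held 4 core sites, at 233, 213, 69 and 40 bases, and an EGR match at 60 bases. Btg2 held a full CRE at 166 bases, which contains 2 overlapping core sites, one on each strand. Junb held 1 core site at 106 bases. Btg1 held core sites at 187 and 103 bases and a TATA box at 26 bases, so the core site was in all 5 windows shown. Of the 40 members, 33 matched the RefSeq table, with 43 windows of 250 bases between them because some genes have several starts. The core site was in 24 of these windows (55.8%, from 17 members), against 17.8% of the 32851 windows of all genes. The full CRE was in 3 windows (6.98% against 1.55%), the core of the serum response element in 6 windows of 3 members (14% against 1.47%) and the EGR site in 9 windows (20.9% against 3.06%). The TATA box was in 6 (14% against 12.4%) and the AP-1 site (TGANTCA) in 2 (4.65% against 6.75%). Every full CRE also counts as a core site, and windows of 1 gene can overlap. A match is a description of letters, and binding was not measured.

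The libraries held 27799403 to 40412640 counts in gene rows, of which mitochondrially encoded genes took 25.7 to 36.5% and the members 0.0640 to 0.162%. Levels are CPM (counts scaled to library size) on library sizes scaled by the trimmed mean of M values. Mean Fkbp1a was 130 ± 10.1 CPM (FKl/l), 122 ± 20.6 (MHC CRE Only), 65.1 ± 10.7 (FKl/l MCK+) and 59.1 ± 12.6 (FKl/l MHC+; SD, n = 6 each). It fell by 1.00 on the log2 scale in FKl/l MCK+ (adjusted p = 0.00032) and by 1.15 in FKl/l MHC+ (adjusted p = 5.47e-06) against FKl/l. Fkbp1a stood at 81.8 CPM in the library labelled MHC CRE Only 1-3, below the 122 CPM or more of the other 5 of its group. Results were repeated without it together with FKl/l 1-1 and MHC CRE Only 2-3, which had the highest lung and airway markers, and no member gained or lost a genotype call.

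Per kilobase of exon, the most abundant members on average over the 24 libraries were Rhob, a small GTPase of the actin cytoskeleton, at 82.6 RPKM (reads per kilobase of exon, scaled to library size as for CPM) and Jund, the JUN subunit that resting cells keep, at 49.5 RPKM. Klf2 (28.2 RPKM), Nfkbia (25.7 RPKM), Jun (20.3 RPKM) and Dusp1 (19.3 RPKM) followed. The classical inducible factors were low, with Nr4a1 at 6.5, Egr1 at 5.62, Fos at 3.13, Egr2 at 0.314 and Fosb at 0.230 RPKM. The most abundant members were not those with the widest spread between libraries.

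Between libraries of the same genotype and batch, most members varied more than most genes of the same level. Their SD of log2 CPM within genotype and batch had a median of 0.36, against 0.18 over all genes tested. Set among the 500 genes nearest in mean level, the median member lay at percentile 96.2, and 27 of 39 members lay above percentile 90. Within batch 1 the median percentile was 91.4 with 20 members above percentile 90, and within batch 2 it was 98 with 32. Egr2 (SD 1.11, percentile 97.8), Fos (1.10, percentile 100) and Nr4a1 (1.00, percentile 99.8) had the widest spread. The steadiest were Zfp36l1 (SD 0.10, percentile 32.0), Btg1 (0.13, percentile 56.8) and Jund (0.14, percentile 73.0). Dusp2, a nuclear phosphatase with few counts, lay at percentile 0.4.

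Fos, the AP-1 subunit that gives the class its best known marker, spanned 1.02 to 22.5 CPM over the 24 libraries. It read 11.3, 4.00, 8.33, 7.40, 8.67 and 10.8 CPM in FKl/l (libraries 1-1, 1-2, 1-3, 2-1, 2-2 and 2-3, the order used throughout). In MHC CRE Only it read 2.53, 1.44, 1.02, 8.71, 13.3 and 22.5 CPM, and FKl/l MCK+ libraries read 2.84, 1.62, 1.05, 4.80, 3.83 and 7.74 CPM. In FKl/l MHC+ it read 11.7, 1.80, 2.15, 1.19, 17.1 and 21 CPM. The FKl/l libraries spanned the narrowest fold range. Those of FKl/l MHC+ fell into 3 high ones (1-1, 2-2 and 2-3) and 3 low ones, with none between 2.15 and 11.7 CPM.

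Egr1, a zinc finger factor induced through SRF, showed the same 3 high libraries in FKl/l MHC+, with 30.9, 10.6, 9.67, 7.98, 75.7 and 74.7 CPM. Nr4a1, an orphan nuclear receptor whose activity is set by its own level, read 32.7, 5.28, 5.46, 6.17, 73.3 and 72.2 CPM there. Atf3, a stress-induced bZIP repressor, read 4.43, 2.88, 2.80, 1.98, 8.46 and 10.1 CPM. The difference between FKl/l MHC+ 2-1 and 2-3, which share genotype and batch, was thus larger for these genes than any difference between genotype medians. Egr2, an EGR family member, went from 0.198 CPM in FKl/l MHC+ 2-1 to 6.49 CPM in 2-3.

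Counted by library, 37 of 39 members in FKl/l MHC+ 2-2 and 34 in FKl/l MHC+ 2-3 lay above the median of their batch, where 50.9% and 50.5% of all genes did. In FKl/l MHC+ 2-3, 12 members were over 2-fold above the batch median. In FKl/l MHC+ 2-1 only 10 members lay above it, and 11 were over 2-fold below (48.8% of all genes lay above). The share of all genes over 2-fold from the median was not computed, so the 12 and 11 only describe the members. FKl/l MHC+ 1-1 had 30 members above the median of batch 1 and FKl/l 1-1 had 29. At the other end, MHC CRE Only 2-1 had 8 members above and FKl/l MCK+ 1-3 had 9. Over all genes the share above the batch median ran from 43.7 to 53.1% in the 24 libraries.

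**Figure D1:**
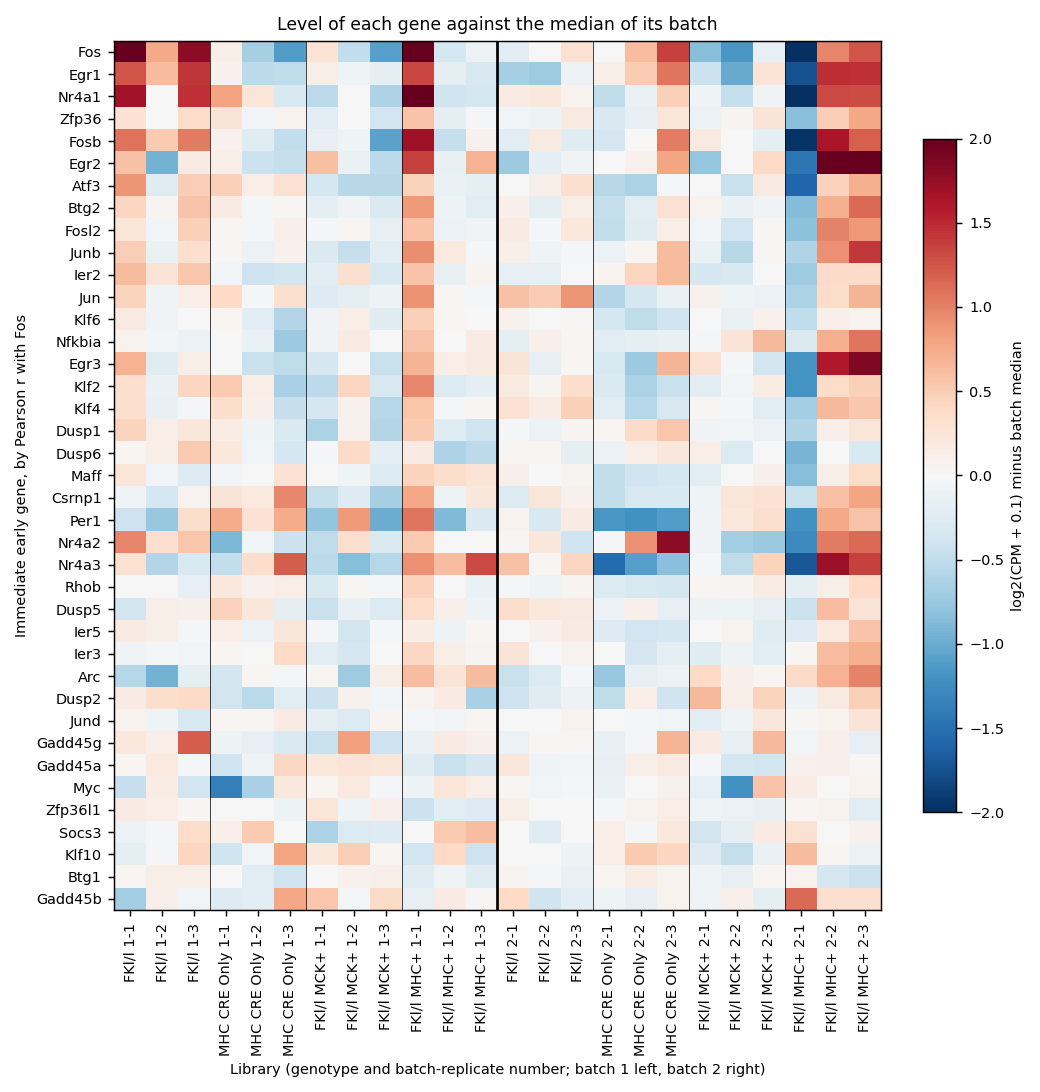
Heat map of the 39 tested members (in order of their correlation with Fos) by the 24 libraries, batch 1 on the left and batch 2 on the right, coloured by log2 CPM minus the median of the same batch. FKl/l MHC+ 1-1, 2-2 and 2-3 are high across the upper members, FKl/l MHC+ 2-1 is low across the same members, and members at the foot, such as Gadd45b and Btg1, do not follow.

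Most members were high in the libraries where Fos was high. After log2 CPM was centred on each genotype and batch, 31 of the 38 other members correlated positively with Fos, with a median r of 0.72 against -0.0099 over all genes. An r above 0.5 was found for 26 of 38 members and for 3.22% of all genes, and members made up 8 of the 10 genes with the highest r. The points are 24 libraries in 8 groups of 3, which share the depth and the composition of each library, so these values are descriptions. The pairwise r between tested members had a median of 0.42 over 741 pairs, of which 46.0% were above 0.5.

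The 6 genes most like Fos were all members: Egr1 (r = 0.957), Nr4a1 (0.947), the mRNA decay protein gene Zfp36 (0.927), the AP-1 subunit gene Fosb (0.926), Egr2 (0.923) and Atf3 (0.920). Egr1 had r = 0.937 in batch 1, 0.987 in batch 2, and 0.969 without the 2 libraries whose Fos was farthest from the median, with Spearman's rho = 0.903 over all 24 libraries. Without FKl/l MHC+ 2-2 and 2-3, r with Fos was 0.912 for Egr1 and 0.889 for Nr4a1. Btg2, an antiproliferative cofactor, followed at 0.917 and Fosl2, another AP-1 subunit, at 0.904.

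Other members did not follow Fos. Gadd45b, a stress sensor of the p38 pathway, had r = -0.59, Btg1 -0.49, the TGF-beta-induced repressor Klf10 -0.46 and the cytokine signalling inhibitor Socs3 -0.39. Arc, which encodes a capsid-like protein best known from neurons, had r = 0.41 and Ier3, an apoptosis regulator, r = 0.48. Several moderate values depended on single libraries. Leaving out 1 library lowered r to as little as -0.0088 for Ier3, 0.107 for Ier5 and 0.095 for Nr4a3. Without FKl/l MHC+ 2-2 and 2-3, r was -0.016 for Ier3, 0.085 for Ier5 and 0.106 for Nr4a3. Centring then leaves FKl/l MHC+ 2-1, alone in its group, with no deviation. These values therefore cannot show which of its libraries r rests on.

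**Figure D2:**
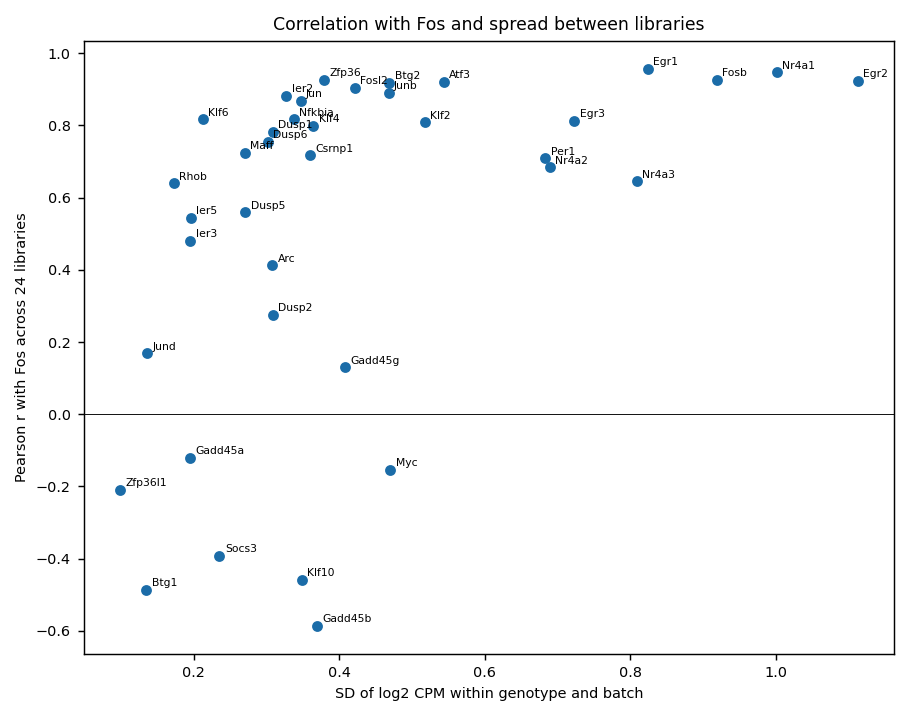
Pearson r of each tested member with Fos (log2 CPM centred on genotype and batch, 24 libraries) against its SD within genotype and batch. Egr1, Egr2, Nr4a1 and Fosb combine r of 0.923 or more with a wide spread, while Zfp36l1, Btg1 and Jund have a narrow spread and r of 0.168 or less.

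By a permutation test that shuffled Fos within genotype and batch, no gene passed after adjustment, so 0% of the 16017 genes and 0 members were called; 23 members and 6.21% of all genes had an unadjusted permutation p under 0.05, and the lowest adjusted permutation p of a member was 0.214. The smallest p that 100000 permutations can give is 1e-05, and 1 gene alone at that value has an adjusted p of 0.160. In these data 1 gene and 0 members were at that value, and the lowest permutation p of a member was 3e-05. An edgeR fit with a slope on log2 CPM of Fos, added after that result was seen, called 0.343% of genes (50 rising and 5 falling with Fos) and 18 of 38 members, all rising. The slope was 0.95 log2 units per log2 unit of Fos for Egr2 (SE 0.117, adjusted p = 2.1e-05), 0.88 for Nr4a1 (SE 0.0758, adjusted p = 9.93e-06) and 0.72 for Egr1 (SE 0.0556, adjusted p = 9.03e-07). It was shallower for Dusp1 (0.22) and Klf6 (0.16). Without FKl/l MHC+ 2-2 and 2-3, 7 genes were called, among them 5 members, Egr1, Nr4a1, Btg2, Zfp36 and Fosb.

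Beyond the members, the same slope was called in 5 of 12 heat shock genes, the chaperone genes Dnajb1, Hsp90aa1, Dnaja1, Hspa1b and Hspa1a (the last pair are near-identical copies whose reads cannot be assigned with certainty). In FKl/l MHC+, Dnajb1 read 37.1, 13.5, 13.8, 12.7, 39.4 and 49.2 CPM, high in the same 3 libraries as Fos. It was also called in 4 of 32 other rapid-response genes (Sik1, Errfi1, Irs2 and Tob2) and in 1 of 11 glucocorticoid-responsive genes (Sgk1). None of 15 circadian clock genes, 12 hypoxia-responsive genes, 22 upstream regulators of the SRF, MAP kinase and CREB routes, 10 cardiomyocyte markers or 8 endothelial markers was called. These 10 companion calls were lost in the fit without FKl/l MHC+ 2-2 and 2-3. That fit leaves FKl/l MHC+ 2-1 alone in its genotype and batch, so it cannot show which libraries the calls rest on. Median r with Fos, over all 24 libraries, was 0.505 in the heat shock list, 0.288 in the other rapid-response list, -0.0756 for clock genes and -0.0889 for endothelial markers.

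Against this spread, genotype differences were few. FKl/l MHC+ was compared with FKl/l to ask what early deletion of Fkbp1a does. Of all genes 1.71% were called, and of the 39 members 1, Arc (ENSMUSG00000022602, chr15:74669083-74672570, minus strand, GRCm38). Arc read 5.17, 4.04, 5.22, 4.02, 5.03 and 6.23 CPM in FKl/l MHC+ and 2.23, 1.70, 2.91, 2.23, 2.52 and 2.98 CPM in FKl/l. Every FKl/l MHC+ library was above every FKl/l library, in both batches. Means were 4.95 ± 0.833 and 2.43 ± 0.479 CPM (SD, n = 6 each), a log2 fold change of 1.03 (SE 0.170, adjusted p = 0.000951 by edgeR), with 1.07 in batch 1 and 0.98 in batch 2.

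Arc was also higher in FKl/l MHC+ than in MHC CRE Only, which carry the same driver without the floxed allele. It read 2.56, 3.45, 3.27, 1.78, 2.73 and 2.83 CPM in MHC CRE Only (mean 2.77 ± 0.587, SD, n = 6), again with no overlap with FKl/l MHC+. The log2 fold change was 0.84 (SE 0.169, adjusted p = 0.00767), 0.64 in batch 1 and 1.06 in batch 2. Arc was the 1 member called, and 1.87% of all genes were. Fitted on batch 1 alone the difference did not pass (0.67, adjusted p = 0.202), nor without FKl/l MHC+ 2-2 and 2-3 (0.73, adjusted p = 0.0713). Against FKl/l it passed without those same libraries (0.92, adjusted p = 0.0128). Both comparisons use the same FKl/l MHC+ libraries.

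Whole-heart RNA cannot tell more Arc per cell from more cells that express it. Of 6 neutrophil markers, 4 passed the filter on low counts. The summed level of all 6 was 2.79 to 9.67 CPM in FKl/l MHC+ and 1.82 to 3.67 CPM in FKl/l. It was 2.70 to 4.72 CPM in MHC CRE Only and 1.80 to 3.83 CPM with MCK-driven deletion. Of the 4 tested, 1, Lcn2, was called in FKl/l MHC+ against FKl/l (log2 fold change 1.48, adjusted p = 0.00152). Lcn2 is also on the glucocorticoid-responsive list. In MHC CRE Only against FKl/l, Lcn2 was also above 0, at 0.94, and the other 3 were below. In FKl/l MHC+ against MHC CRE Only, all 4 were above 0 (0.54 to 2.08). None was called there, and all 4 had an unadjusted p under 0.05 by edgeR, against 15.8% of all genes. The summed level of 8 endothelial markers was 499 to 632 CPM in FKl/l MHC+ and 552 to 764 CPM in FKl/l, with 1 of 8, Robo4, called lower (-0.32, adjusted p = 0.0076). Their part in the Arc difference was not tested.

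By edgeR on all 24 libraries the remaining members were not called in these 2 comparisons. Leaving out FKl/l MHC+ 2-1 added Egr2 and Nfkbia in both, and Egr3, Ier3, Klf6 and Maff against MHC CRE Only. On all 24 libraries, DESeq2 also called Egr2 in both and Klf6 and Nfkbia against MHC CRE Only, and limma voom also called Nfkbia there. Against FKl/l, 8 members (20.5%, against 14.7% of all genes) had an unadjusted p under 0.05, 27 of 39 fold changes were above 0 and the median was 0.11 on the log2 scale (-0.0035 over all genes). Next was Egr2, with 1.99 (SE 0.579, adjusted p = 0.0835), with FKl/l MHC+ 2-2 and 2-3 at 5.99 and 6.49 CPM against 0.198 to 1.30 CPM in the other 4. Against MHC CRE Only, 10 (25.6%, against 15.8% of all genes) had an unadjusted p under 0.05, 31 were above 0 and the median was 0.33 (-0.016 over all genes). There Nfkbia, the inhibitor that holds NF-kappaB in the cytosol, missed the threshold by edgeR at 0.66 (adjusted p = 0.0514), as did Klf6, a zinc finger factor, at 0.38 (adjusted p = 0.0682). Among companion genes, Cdkn1a (1.29, adjusted p = 0.000382), a cell cycle inhibitor, and the metallothionein gene Mt2 (1.68, adjusted p = 0.00569), both of the glucocorticoid-responsive list, were higher than in FKl/l.

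**Figure D3:**
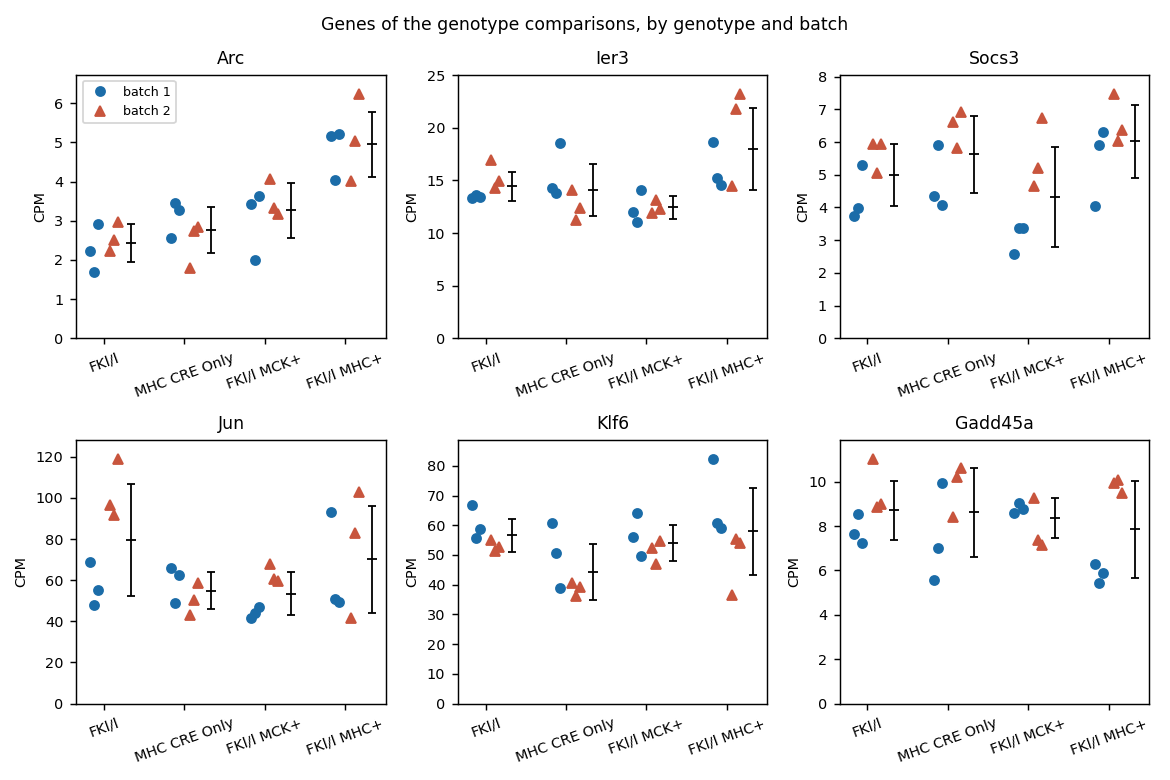
CPM of Arc, Ier3, Socs3, Jun, Klf6 and Gadd45a in each library by genotype, circles for batch 1 and triangles for batch 2, with mean and SD of 6 libraries. Arc lies between 4.02 and 6.23 CPM in FKl/l MHC+ and at or below 2.98 CPM in FKl/l, and Ier3 in FKl/l MHC+ lies above every FKl/l MCK+ library.

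The deletions by the 2 drivers were then compared with each other, where 2.15% of all genes and 2 of 39 members were called. Ier3 (chr17:35821684-35822923, plus strand) read 18.7, 15.2, 14.5, 14.5, 21.8 and 23.2 CPM in FKl/l MHC+ and 12, 11.1, 14.1, 11.9, 13.2 and 12.3 CPM in FKl/l MCK+. The groups did not overlap, although 14.1 and 14.5 CPM are close. The log2 fold change was 0.53 (SE 0.117, adjusted p = 0.0146), with 0.38 in batch 1 and 0.67 in batch 2. Without FKl/l MHC+ 2-3 it was not called (adjusted p = 0.0554), nor without both 2-2 and 2-3 (0.32, adjusted p = 0.121) or in batch 1 alone (adjusted p = 0.101).

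Socs3 (chr11:117966079-117970047, minus strand), which shuts off JAK-STAT signalling from IL-6 type cytokines, read 4.05, 5.92, 6.29, 7.47, 6.04 and 6.38 CPM in FKl/l MHC+. In FKl/l MCK+ it read 2.58, 3.36, 3.38, 4.65, 5.22 and 6.73 CPM, and the groups overlapped. The log2 fold change was 0.52 (SE 0.136, adjusted p = 0.0395), 0.80 in batch 1 and 0.26 in batch 2. Dropping a single library ended the call in 9 of 24 fits, those without FKl/l MCK+ 1-1, 1-2, 1-3, 2-1 or 2-2 or FKl/l MHC+ 1-2, 1-3, 2-1 or 2-3, with an adjusted p of up to 0.121. FKl/l MHC+ 2-1, the lowest library of its genotype for Fos and Egr1, was the highest for Socs3.

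Arc was 0.60 higher in FKl/l MHC+ than in FKl/l MCK+ (SE 0.167), close to the threshold (adjusted p = 0.0533 by edgeR). It was called in 6 of 12 alternatives, those with DESeq2, limma voom, RLE size factors, library sizes without mitochondrial genes, no filter on low counts and only the 2 genotypes compared, and in 6 of 24 fits without 1 library. Its FKl/l MCK+ values were 3.42, 1.99, 3.63, 4.07, 3.32 and 3.17 CPM, and the highest of them exceeded the lowest FKl/l MHC+ value. In order of mean, Arc stood at 2.43 CPM in FKl/l, 2.77 in MHC CRE Only, 3.27 with MCK-driven and 4.95 with αMHC-driven deletion, and the first 3 overlapped one another. Over all members, 33 of 39 fold changes were above 0 with a median of 0.28 (-0.0071 over all genes), and 14 (35.9%, against 15.4% of all genes) had an unadjusted p under 0.05. Endothelial markers were lower in FKl/l MHC+ than in FKl/l MCK+, with 6 of 8 called (median log2 fold change -0.31), for example Cdh5 (-0.36, adjusted p = 0.0058). Their part in the member differences was not tested.

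FKl/l MCK+ and MHC CRE Only were each compared with the same FKl/l libraries, and edgeR called no member in either. In FKl/l MCK+ against FKl/l, 0.0499% of all genes were called, 4 members (10.3%, against 5.24% of all genes) had an unadjusted p under 0.05, and DESeq2 and limma voom also called 0. Fold changes were below 0 for 31 of 39 members, with a median of -0.17 (0.0043 over all genes). The 3 smallest p-values were those of Jun (-0.56, SE 0.218, adjusted p = 0.854), Arc (0.42, SE 0.171, adjusted p = 0.858) and Fos (-1.51, SE 0.644, adjusted p = 0.896). Mean Fos was 8.41 ± 2.63 CPM in FKl/l against 3.65 ± 2.44 CPM after MCK-driven deletion (SD, n = 6 each), and the groups overlapped.

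Jun, the main partner of FOS proteins in AP-1, had a lowest, median and highest level of 47.8, 80.1 and 119 CPM in FKl/l, against 41.8, 53.2 and 68.1 CPM in FKl/l MCK+. The corresponding values were 42.9, 54.6 and 66.1 CPM in MHC CRE Only and 41.5, 67.0 and 103 CPM in FKl/l MHC+. All 3 batch 2 libraries of FKl/l, at 91.6 to 119 CPM, stood above every library of FKl/l MCK+ and MHC CRE Only, and its batch 1 libraries lay at 47.8 to 68.6 CPM. An antisense gene, Junos, overlaps Jun, and how strand was treated in counting is not given.

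In MHC CRE Only against FKl/l, 0.0437% of all genes and 0 members were called, 2 members (5.13%, against 12.9% of all genes) had an unadjusted p under 0.05, and DESeq2 and limma voom again called 0. The smallest p-values were those of Klf6 (-0.36, SE 0.110, adjusted p = 0.153), Jun (-0.48, SE 0.220, adjusted p = 0.358) and Klf4 (-0.35, SE 0.199, adjusted p = 0.481), the last a zinc finger factor of vascular cells. Klf6 had a lowest, median and highest level of 36.2, 39.9 and 60.7 CPM in MHC CRE Only and 51.2, 55.4 and 66.8 CPM in FKl/l, with 5 of the 6 MHC CRE Only libraries below every FKl/l library. Klf4 read 17, 21 and 36.1 CPM against 25.7, 29.6 and 36.0 CPM in the same order. Several fold changes, each from 3 libraries per group, differed in sign between the 2 batches. Fos was -2.24 in batch 1 and 0.73 in batch 2, Egr1 -1.45 and 1.09, and Jun 0.05 and -1.02. The interaction test described below called 0 members by edgeR, so these signs are a description.

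A test for any difference among the 4 genotypes called 2.44% of all genes and 2 members, Arc (adjusted p = 0.00192) and Ier3 (adjusted p = 0.0445). The Ier3 call was lost in 15 of 24 fits without 1 library. Members of the other families overlapped between genotypes. Dusp1, a MAP kinase phosphatase, had medians of 68.1, 66.3, 60.9 and 59.5 CPM for FKl/l, then MHC CRE Only, the MCK-driven and the αMHC-driven deletion, within a range of 30.6 to 114 CPM. Btg2 had medians of 29.0, 22.8, 24.2 and 27.7 CPM in the same order, and reached 70.0 CPM in FKl/l MHC+ 2-3. Per1, a clock gene that light and glucocorticoids induce quickly, had medians of 22.7, 16.4, 28.9 and 22.2 CPM. Myc, the growth-promoting transcription factor, had medians of 1.14, 1.13, 1.27 and 1.29 CPM, with every library at or below 1.82 CPM.

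**Figure D4:**
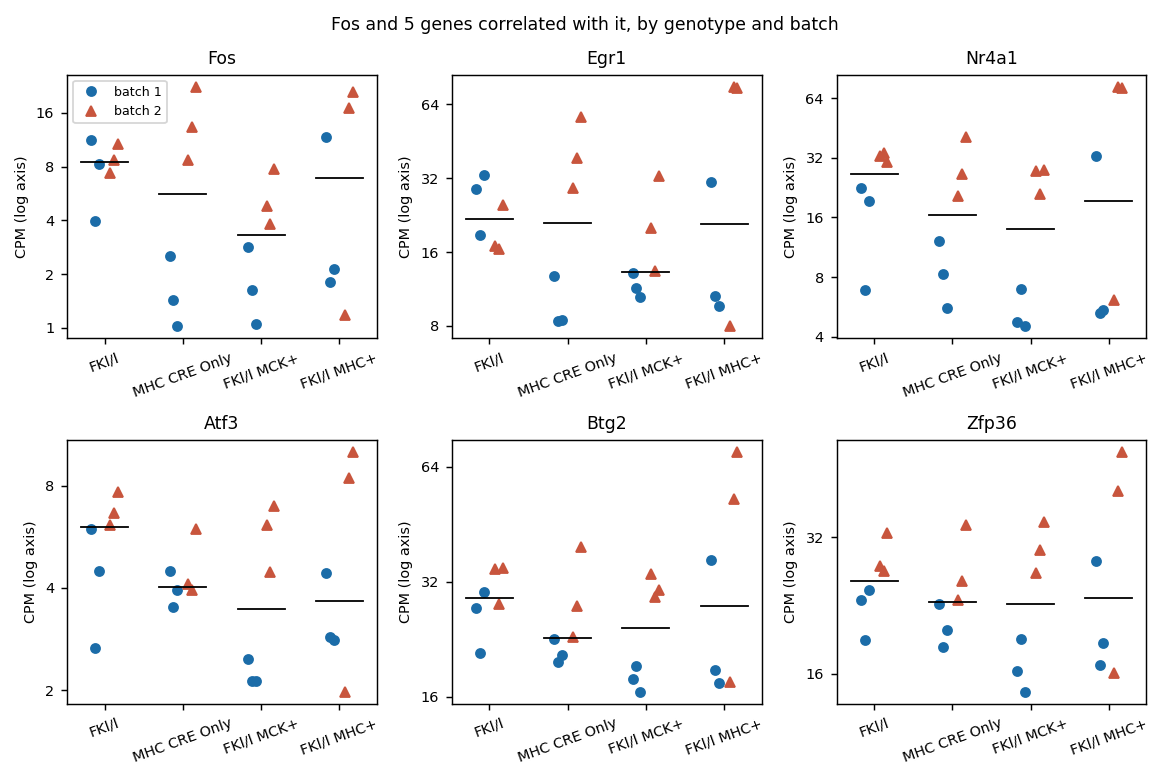
CPM of Fos, Egr1, Nr4a1, Atf3, Btg2 and Zfp36 on a log2 axis by genotype, circles for batch 1, triangles for batch 2, and a bar at the median of 6 libraries. The ranges of the 4 genotypes overlap in every panel, and for Egr1 FKl/l MHC+ holds both the lowest and the highest library, at 7.98 and 75.7 CPM.

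More members were called between batches than between genotypes. Between batches 38.4% of all genes were called, 22.2% higher and 16.2% lower in batch 2, and of the 39 members 25 were called, 22 of them higher and 3 lower. The median log2 fold change of the members was 0.46, against 0.020 over all genes. Each batch held 12 libraries, 3 of each genotype. Without FKl/l MHC+ 2-2 and 2-3, 20 members were called, 19 of them among the 25. The share of all genes called in that fit is not given here.

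All 3 tested FOS genes, all 3 EGR genes and all 3 NR4A genes were called higher in batch 2. All 3 NR4A genes were still called without FKl/l MHC+ 2-2 and 2-3, but only 1 of 3 FOS genes, Fosl2, and 0 of 3 EGR genes. That fit keeps the low library FKl/l MHC+ 2-1 as the only one of its genotype in batch 2. Without FKl/l MHC+ 2-1 instead, 27 members were called, with all tested FOS, EGR and NR4A genes among them. The share of all genes called without FKl/l MHC+ 2-1 is not given here either. The log2 fold changes of the NR4A receptors were 1.68 for Nr4a1 (adjusted p = 0.00112), 1.44 for Nr4a3 and 1.20 for Nr4a2. Nr4a1 had a median of 6.96 CPM in batch 1 (4.52 to 32.7) and 29.2 CPM in batch 2 (6.17 to 73.3). Fos had a median of 2.34 CPM (1.02 to 11.7) and 8.69 CPM (1.19 to 22.5), a log2 fold change of 1.48 (SE 0.459, adjusted p = 0.0147). The ranges of the 2 batches overlapped for both genes, with FKl/l MHC+ 2-1 low and FKl/l MHC+ 1-1 high.

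The smallest p-values between batches included those of 3 negative regulators. Dusp5, a nuclear phosphatase of ERK, had a median of 3.62 CPM in batch 1 (2.64 to 5.00) and 5.48 CPM in batch 2 (4.04 to 8.46), a log2 fold change of 0.67 (SE 0.105, adjusted p = 1.25e-05). Dusp1 had medians of 47.7 and 77.2 CPM, with 0.77 (SE 0.130, adjusted p = 8.3e-05). Dusp6, an ERK phosphatase of the cytosol, was also called, and Dusp2 was not. Socs3 had medians of 4.07 and 6 CPM, with 0.48 (SE 0.096, adjusted p = 0.000239).

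Fosl2 rose from a median of 14.4 CPM in batch 1 to 25.4 CPM in batch 2 (0.81, SE 0.157, adjusted p = 0.000352), and Rhob from 165 to 223 CPM (0.37, SE 0.077, adjusted p = 0.000375). The 3 members lower in batch 2 were Btg1 (medians 23.8 and 19.3 CPM, -0.31, SE 0.063, adjusted p = 0.000291), Klf6 (-0.29, adjusted p = 0.00387) and Zfp36l1 (-0.20, adjusted p = 0.00454). The BTG and ZFP36 families each had 1 gene higher, Btg2 and Zfp36, and 1 lower. Of the KLF genes none was higher in batch 2 and 1 of 4 was lower. Of the JUN genes 1 of 3, Junb, was higher (0.89), while Jun (0.34, adjusted p = 0.0927) was not called. The rest of the 22 were Per1 (0.91), the apoptosis-linked nuclear factor Csrnp1 (0.85), Egr3 (0.84), Atf3 (0.81), Egr2 (1.21), Fosb (1.11), Egr1 (1.05), Maff (0.38), a small MAF factor, and Gadd45a (0.32).

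Members not called between batches included Arc (0.04) and Ier3 (0.05), both called between genotypes, along with Jund (0.04), Myc (0.015) and Gadd45b (-0.06). Klf2, Klf4, Klf10, Ier2, Ier5, Nfkbia, Dusp2 and Gadd45g were not called either, with log2 fold changes between -0.20 and 0.46. Other lists also differed between batches. Of the heat shock genes 7 of 12 were higher and 1 lower, of the other rapid-response genes 12 of 32 were higher and 4 lower, and of the upstream regulators 10 of 22 were higher and 4 lower. Of the cell type markers, 7 of 10 cardiomyocyte genes and 5 of 8 endothelial genes were lower in batch 2 and 2 cardiomyocyte genes were higher. The mitochondrial share was 27.6 to 36.5% in batch 1 and 25.7 to 29.9% in batch 2. The part of cell makeup and of RNA composition in the member differences was not tested.

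**Figure D5:**
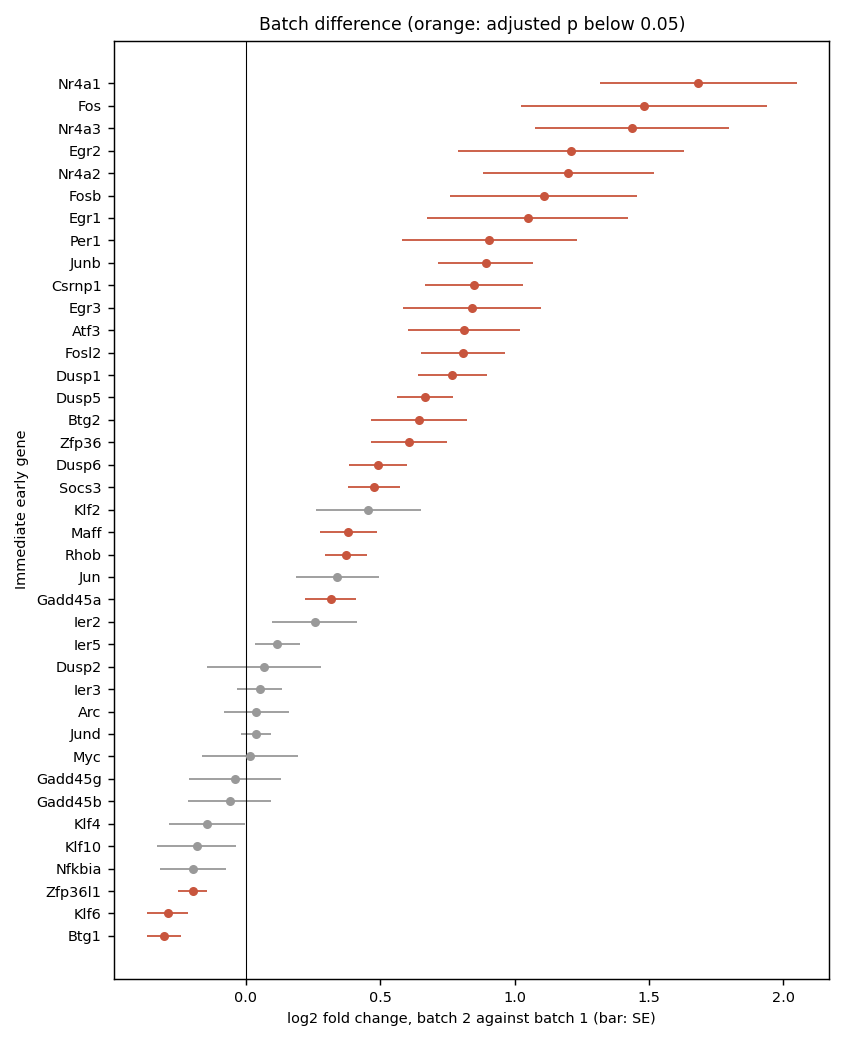
Log2 fold change of batch 2 against batch 1 for each tested member, with its standard error, in orange where the adjusted p was under 0.05. The NR4A, FOS and EGR genes lie between 0.81 and 1.68, and Btg1, Klf6 and Zfp36l1 are the 3 called below 0.

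Whether genotype differences depended on batch was tested with an interaction. By edgeR 4.91% of all genes and 0 members were called, while 10 members had an unadjusted p under 0.05 (25.6%, close to the 25.0% of all genes). DESeq2 called 4 (Csrnp1, Gadd45a, Nr4a2 and Zfp36l1) and limma voom 0. The smallest p was that of Gadd45a, a stress sensor in growth arrest (adjusted p = 0.0541). Gadd45a was at 5.45 to 6.28 CPM in batch 1 and 9.49 to 10.1 CPM in batch 2 of FKl/l MHC+, whereas in FKl/l MCK+ it was at 8.58 to 9.04 and 7.14 to 9.24 CPM. Zfp36l1, an mRNA decay protein gene, followed (adjusted p = 0.0591). It was at 45.3 to 56.6 and 37.0 to 38.8 CPM in FKl/l MCK+ but at 35.8 to 41.1 and 35.7 to 43.2 CPM in FKl/l MHC+. Rhob (adjusted p = 0.0962) was at 133 to 168 and 228 to 246 CPM in FKl/l MCK+, and at 174 to 191 and 175 to 185 CPM in MHC CRE Only.

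In the authors' deposited tables of the same 5 comparisons, 39 members were listed and none had an adjusted p under 0.05. Few of the 16363 genes listed did. There were 2 in FKl/l MCK+ against FKl/l and 1 in MHC CRE Only against FKl/l. FKl/l MHC+ had 23 against FKl/l, 14 against FKl/l MCK+ and 11 against MHC CRE Only. Arc had the smallest adjusted p among members in FKl/l MHC+ against FKl/l, with a log2 fold change of 1.03 and 0.0687 by the authors' test. Against MHC CRE Only its log2 fold change was 0.88, with an adjusted p of 0.406 by the authors' test.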

How the data were processed

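RNA-seq libraries were made from whole hearts with a stranded kit (NEBNext Ultra II Directional), per the labels' protocols. The authors deposited 1 table of whole-number read counts per gene, not normalized, and 5 tables of their own comparisons, which, per the file headers, give for each gene its average log2 expression and log2 fold change with a statistic (a score) and raw and adjusted p-values. Per the submitters' processing notes, STAR, RSEM, Trim Galore, FastQC and bcl2fastq 2.17 were used, with mm10 (GRCm38); these notes do not state the annotation, the strand setting or any rounding of RSEM estimates. Transcript-named rows without a gene (3660 of 56384, with 0.873 to 4.28% of counts) were left out.

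From the deposited counts, edgeR 4.0.16 (R 4.3.3) fitted genotype and batch to all 24 libraries after TMM scaling and filterByExpr by genotype, which kept 16018 genes (99.89% or more of the counts of any library). Calls are 2-sided quasi-likelihood F-tests with Benjamini-Hochberg adjusted p under 0.05 over all genes tested, and every adjusted p is from this test unless another is named. SE is the standard error of a log2 fold change. Alternatives used DESeq2 1.42.0 and limma 3.58.1. Correlations with Fos used log2 CPM (prior count 2) centred on the 8 groups of genotype and batch, with 100000 permutations within them. RPKM used GENCODE M21 exon lengths. The fits were tested on simulated data. Libraries of 1 genotype all differed beyond counting noise, with a chi-square per degree of freedom of 8.37 to 99.

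Members and companion lists were chosen with earlier results of these data known. Genes given in full are members called in a genotype comparison, the 3 smallest p-values where no member was called, 9 family representatives (Fos, Jun, Egr1, Nr4a1, Atf3, Dusp1, Btg2, Per1 and Myc) and the 6 smallest adjusted p-values between batches. Beside them, up to 4 genes of a companion list and the 6 genes most like Fos are named.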

Additional observations from a re-analysis of the deposited data

Results flagged for a closer look

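Within each genotype, the highest and the lowest of the 6 libraries were compared with the rest by Dixon's ratio, and 8 of 156 groups had a library that stood apart; chance gives about 1 in 20. Gadd45b was at 7.16 CPM in FKl/l MHC+ 2-1, the library with the lowest Fos of its genotype, against 3.06 to 4.02 CPM in the others. Gadd45b was also at 5.95 CPM in the library labelled MHC CRE Only 1-3, which had the lowest Fos of all 24, against 2.85 to 3.38 CPM. Gadd45g, another stress sensor, was at 8.01 CPM in FKl/l 1-3 (others 3.16 to 3.96) and at 5.51 CPM in MHC CRE Only 2-3 (others 2.74 to 3.38). Klf10 was at 14.1 CPM in FKl/l 1-3 (others 8.82 to 10.1). Jund, otherwise among the steadiest members, was at 98.3 CPM in FKl/l MHC+ 2-3 (others 80.4 to 85.9). On the low side, Nr4a1 was at 6.92 CPM in FKl/l 1-2 (others 19.3 to 33.9) and Arc at 1.99 CPM in FKl/l MCK+ 1-2 (others 3.17 to 4.07).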

How the results depend on the processing

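Numbers of members called changed by more than 1.5 times as follows. DESeq2 called 2 in FKl/l MHC+ against FKl/l, 4 against MHC CRE Only, 5 against FKl/l MCK+, 6 among the 4 genotypes and 4 in the interaction. Limma voom called 2 in FKl/l MHC+ against MHC CRE Only and 1 among the 4 genotypes. With no batch term, 1 was called in FKl/l MHC+ against FKl/l MCK+ and 1 among the 4 genotypes. In batch 1 alone 0 were called in FKl/l MHC+ against MHC CRE Only, 1 against FKl/l MCK+ and 1 among the 4 genotypes, and in batch 2 alone 3 and 1 in the first pair of comparisons. Without FKl/l MHC+ 2-2 and 2-3, chosen after seeing the data, 0, 1 and 1 were called in the same order as for batch 1, and 6 in the interaction. With no filter on low counts 22 were called in the interaction, and the cause was not tested. The share of all genes called under these alternatives is not given here. Their counts are therefore not results about the members in particular. A slope on Fos in edgeR, chosen after seeing the data, called 18 where the permutation test called 0. A replicate block called 3 in FKl/l MHC+ against MHC CRE Only (Arc, Klf6 and Nfkbia) and, among the 4 genotypes, Arc and Nfkbia in place of Ier3; it moved no other count. Same-numbered libraries did not deviate together (r from -0.238 to 0.162 over 36 pairs, 3 above 0.1, and 0 libraries closest to their own number), so the numbers were not taken to pair hearts. Jun in MHC CRE Only against FKl/l changed sign in batch 1 alone (0.047, adjusted p = 0.936). Leaving out 1 library at a time, calls ranged from 0 to 0 in FKl/l MCK+ against FKl/l and in MHC CRE Only against FKl/l, 1 to 3 in FKl/l MHC+ against FKl/l, 1 to 7 against MHC CRE Only, 0 to 6 against FKl/l MCK+, 1 to 7 among the 4 genotypes, 22 to 27 between batches, 0 to 10 in the interaction and 0 to 0 for the correlation with Fos. Arc held in all 24 such fits against FKl/l (adjusted p 0.000138 to 0.00488) and against MHC CRE Only (0.00185 to 0.0309). The highest counts in the FKl/l MHC+ comparisons, among the 4 genotypes and in the interaction all came from the fit without FKl/l MHC+ 2-1. Egr2 was called in each of them. The share of all genes called when 1 library was left out is not given here. RLE scaling, library sizes without mitochondrial genes and no filter on low counts each added Arc in FKl/l MHC+ against FKl/l MCK+ (3 called in place of 2) and, of these settings, the first pair moved no other count by 1.5 times or more. Members with few counts, such as Dusp2 and Fosl1, are limited by depth.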

Other observations

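Among the 32 other rapid-response genes, Sik1, a salt-inducible kinase under CREB control, read 16.5, 6.20, 5.46, 9.08, 60.6 and 57.5 CPM in FKl/l MHC+, with FKl/l MHC+ 2-2 and 2-3 standing far above the rest as for Nr4a1. It was 1.64 higher on the log2 scale in batch 2 than in batch 1 (SE 0.261, adjusted p = 5.21e-05 by edgeR). Klf9, a glucocorticoid-induced factor, was lower in batch 2 (-0.73, SE 0.0511, adjusted p = 2.18e-11), and Irs2, an insulin signalling adaptor, was higher (0.96, SE 0.174, adjusted p = 0.000172). The chaperone gene Hspa1a, whose reads are shared with Hspa1b, read 30.2 CPM in FKl/l MHC+ 1-1, 36.0 in 2-2 and 91.6 in 2-3 but 2.83 in 2-1, and 21.6, 61.4 and 129 CPM in the batch 2 libraries of FKl/l. FKl/l 2-3 was thus high for Hspa1a while its Fos, at 10.8 CPM, was below that of FKl/l MHC+ 2-2 and 2-3.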
